A study of Mus musculus with 8 samples.

Results

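Flt3 encodes the receptor tyrosine kinase for Flt3 ligand, which supports early lymphoid and myeloid progenitors. In mouse bone marrow its protein marks the lymphoid-primed multipotent progenitors among LSK cells (lineage-negative, Sca1-positive, Kit-positive), while stem cells and megakaryocyte- and erythroid-biased progenitors carry little of it on their surface. Binding of the ligand activates the kinase and signals for survival and division. An open regulatory element is cut often by the Tn5 transposase, so that ATAC-seq counts at a locus report how accessible its DNA is, which is a different quantity from the surface protein used for sorting.

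The Flt3 locus was taken as all peaks of the deposited table that overlapped chr5:148130000-148225000 (mm9), which gave 24 of 134473 peaks. Flt3 lies there on the minus strand, at about chr5:148142000-148212000, so its start is near the high end of the range. The libraries came from C57BL/6 mice 8 to 12 weeks old and held 500 sorted cells each. Vwf+Gata1+ MPP2 cells and Vwf-Gata1+ MPP2 cells were compared, with 4 libraries per group. Both groups were sorted as LSK cells negative for Flt3 and positive for CD150, CD48 and Gata1, so that the absence of surface Flt3 was shared by all 8 libraries and the sort differed by Vwf, which encodes a clotting protein of platelets and endothelium. Which reporter or stain read Vwf and Gata1, and whether a library came from 1 animal or a pool, is not stated in the labels. The p-values therefore measure the spread between these libraries, which may be technical in part. Peaks were tied to no gene other than Flt3, so markers of the sort or of other cell types were not checked.

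Total counts in peaks ran from 4628997 to 7753538 per library. Signal is given as CPM, the count scaled to the library's total over the peaks that passed a filter on low counts, after TMM normalisation. On this scale 1 count was worth 0.131 to 0.229 CPM depending on the library. Values of single libraries are listed in the order of replicates 1 to 4. At each position, a lower signal in fewer open cells and a lower signal in every cell cannot be told apart in sorted pools.

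The 250 bases before the annotated start of Flt3 are shown because the peak with the highest CPM of the 24 lay over the start of the gene. The sequence is from RefSeq on build GRCm38.p6 (chr5:147400490-147400739, minus strand). It is written 5′ to 3′ in the direction of the gene and was not converted to mm9, so the peak edges cannot be placed on it. Capitals mark the motif matches.

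Flt3 upstream sequence: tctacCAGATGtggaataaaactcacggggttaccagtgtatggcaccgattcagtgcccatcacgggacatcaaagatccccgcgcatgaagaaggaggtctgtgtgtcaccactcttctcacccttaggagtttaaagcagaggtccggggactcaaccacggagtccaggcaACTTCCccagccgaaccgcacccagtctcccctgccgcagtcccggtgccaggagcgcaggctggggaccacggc

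Both strands of this window were searched. An ETS core (GGAAGT or GGAAGC) was found 1 time, on the opposite strand 75 to 70 bases before the start, and 37.0% of 32841 promoter windows of this length held one. ETS factors include PU.1 and Fli1 of blood cells. An E-box (CANNTG), the site type of Tal1 and related factors, was found 1 time, 245 to 240 bases before the start, and 66.2% of windows held one. The GATA motif (GATAA or GATAG after an A or T) was not found in this window, and 26.5% of all windows held it. RUNX (TGTGGT), CEBP (TTGCNNAA) and HOX (TAATTA) motifs had 0 matches and were held by 14.0%, 9.57% and 4.84% of windows. No match overlapped another. The sequence was 59.2% G or C and held 13 CG dinucleotides, against medians of 52.4% and 6 over all windows. A match is a description of letters and does not show binding.

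The locus was densely accessible in these cells sorted as Flt3-negative. Its 24 peaks compare with a median of 6 in the 18821 95 kb tiles over all chromosomes that held a peak, and 99.4% of these had fewer. The tiles were laid without regard to genes, and 3129 of them held 1 peak, while the range was set around a gene. The peaks covered 10305 bp, more than in 94.96% of tiles, whose median was 2962 bp. Summed signal averaged 129.4 CPM over the 8 libraries against a tile median of 28.3 CPM, and was above that of 87.2% of tiles. Per covered kb the signal was 12.6 CPM, above 66.2% of tiles (median 8.77 CPM per kb). The place of the locus was thus highest by number of peaks and lowest by signal per covered length. The flanks of 200 kb on either side held 51 peaks, or 12.1 per 95 kb.

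**Figure D1:**
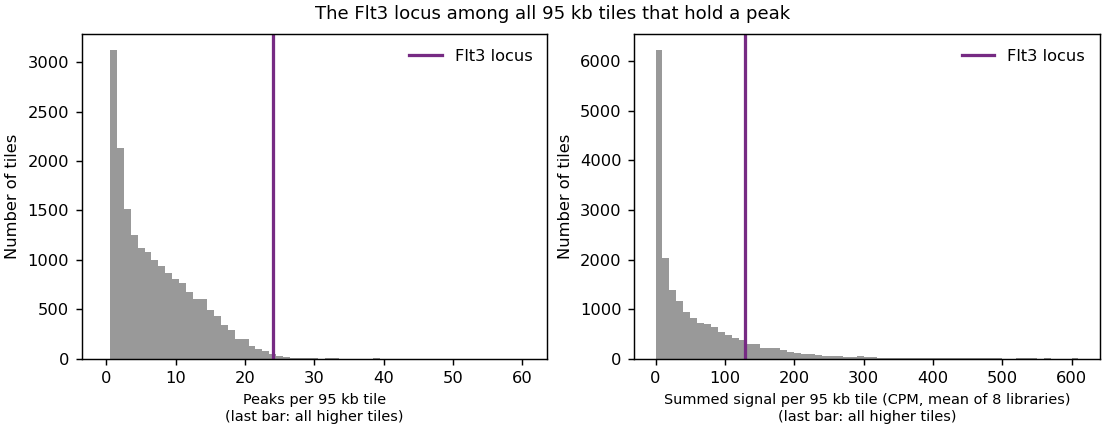
Number of 95 kb tiles (y axis) by peaks per tile (left) and by summed signal in CPM, mean of 8 libraries (right). The purple line marks the Flt3 locus, with 24 peaks and 129.4 CPM, in the upper tail of the peak count and less far out by signal.

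Most of these peaks were of ordinary strength. The median member had 2.42 CPM and a width of 322.5 bp, against 2.78 CPM and 393 bp over all peaks of the table. Per kb of peak the median was 6.65 CPM at the locus and 6.73 CPM over all peaks, and 11 of 24 members were above that value. Per kb, 3 of 24 members were stronger than 90% of all peaks. This is near the share of all peaks above that level, which its definition fixes. The 4 peaks with most counts held 57.9% of the locus counts. By position, 2 peaks lay within 1 kb of the approximate start (promoter), 17 in the gene body, 3 upstream and 2 downstream. They contributed 19.3%, 54.5%, 4.62% and 21.6% of the locus signal in this order.

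**Figure D2:**
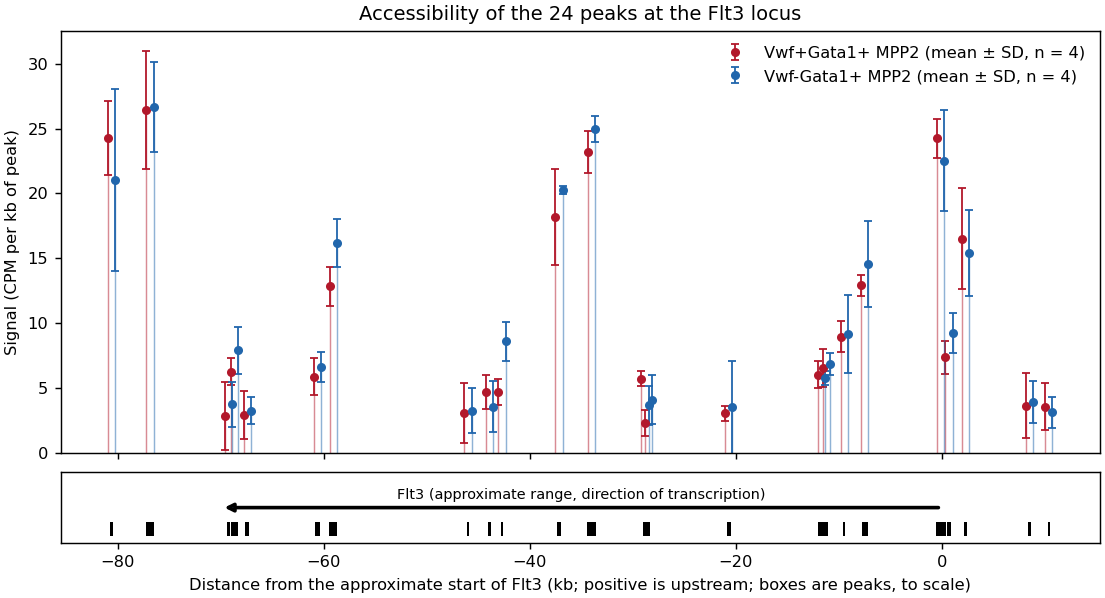
Signal in CPM per kb of peak (y axis) at the 24 peaks against distance in kb from the approximate start of Flt3 (x axis, positive is upstream). Points are means with SD over 4 libraries per group, the arrow is the approximate gene and boxes are peaks. High signal stands at the start, about 34 to 37 kb into the gene and about 77 to 81 kb from the start, beyond the gene's end, in both groups.

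The promoter of Flt3 was open in all 8 libraries. The peak over the start (chr5:148211423-148212349) had 24.4, 21.2, 21.8 and 22.6 CPM in replicates 1 to 4 of Vwf+Gata1+ cells, against 20.4, 16.0, 24.2 and 22.9 CPM in replicates 1 to 4 of Vwf-Gata1+ cells. The groups overlapped, and replicate 2 of Vwf-Gata1+ cells was the lowest library. The peak was stronger than 90.8% of all peaks by CPM and 90.3% per kb. Its log2 fold change (Vwf+Gata1+ minus Vwf-Gata1+) was 0.12 ± 0.12 (SE, edgeR quasi-likelihood test, adjusted p = 0.912). The 95% interval of the fold ran from 0.918 to 1.29. A second, narrower promoter peak (chr5:148212487-148212889) had 2.96 ± 0.517 CPM in Vwf+Gata1+ libraries, against 3.71 ± 0.621 CPM in Vwf-Gata1+ libraries (SD over libraries, n = 4 each), with a log2 fold change at -0.27 ± 0.25 (SE, edgeR adjusted p = 0.901). Both promoter peaks thus differed by less than the test could call, and their estimates had opposite signs. By gene order in the GRCm38.p6 annotation, the long non-coding RNA gene Gm26597 lies by the start of Flt3. Gene order does not show whether the genes overlap, and the signal there was not divided between them.

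The share of locus counts that fell in the peak over the start was 17.8% ± 0.936 in Vwf+Gata1+ libraries, against 15.7% ± 2.23 in Vwf-Gata1+ libraries (SD over libraries, n = 4 each; 2-sided exact permutation p = 0.143, where 4 against 4 libraries allow none below 0.0286). The highest share of a single library was 19.0% in replicate 1 of Vwf+Gata1+ cells (exact binomial 95% interval 16.6% to 21.6%), and the lowest was 12.7% in replicate 2 of Vwf-Gata1+ cells (10.5% to 15.2%). These intervals cover counting error only, and the comparison of shares was not among the planned tests.

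Inside the gene, the strongest element was a peak of 868 bp about 34.0 kb from the start (chr5:148177560-148178427). It had 21.1, 18.2, 19.9 and 21.3 CPM in Vwf+Gata1+ libraries, against 22.5, 20.8, 21.1 and 22.3 CPM in Vwf-Gata1+ libraries. The groups overlapped and no library stood far from the others. Its mean over all libraries, 20.9 CPM, was close to the 21.7 CPM of the peak over the start. The log2 fold change was -0.10 ± 0.11 (SE, edgeR adjusted p = 0.922), with a 95% interval of the fold from 0.796 to 1.09. A narrower peak 37.2 kb from the start (chr5:148174672-148174993) was also strong per kb, at 19.2 CPM per kb, and had a log2 fold change at -0.13 ± 0.19 (SE, edgeR adjusted p = 0.949).

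Beyond the end of the gene, a pair of peaks was among the 4 highest of the 24 per kb, at 26.5 and 22.6 CPM per kb. The stronger peak (chr5:148134735-148135521, 76.9 kb from the start) had 17.4, 25.3, 18.6 and 21.9 CPM in Vwf+Gata1+ libraries, against 21.7, 19.8, 24.4 and 18.0 CPM in Vwf-Gata1+ libraries. High and low libraries occurred in both groups, and the log2 fold change was -0.01 ± 0.13 (SE, edgeR adjusted p = 0.995). The other (chr5:148131267-148131578) had 6.45, 8.63, 7.56 and 7.62 CPM in Vwf+Gata1+ libraries, against 5.23, 7.69, 4.29 and 9.05 CPM in Vwf-Gata1+ libraries. Its highest and its lowest library were both Vwf-Gata1+, and the log2 fold change was 0.18 ± 0.20 (SE, edgeR adjusted p = 0.925). In the gene order of GRCm38.p6 the genes on this side are the pseudogene Gm29778, then Urad, a gene of urate breakdown, and Cdx2, a homeobox gene of the intestine. The peaks were not assigned to any of them.

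Of the 24 peaks, 15 passed the filter on low counts and were tested, and 0 had an adjusted p under 0.05 in edgeR's quasi-likelihood test, where 0.0144% of all 97040 tested peaks did. DESeq2 and limma-voom also called 0, with 0 and 1 members at an unadjusted p under 0.05 (4090 and 6619 over all peaks). At an unadjusted p under 0.05 edgeR had 1 of the 15, and 6.72% of all tested peaks. The log2 fold change was below 0 at 9 of the 15 and above 0 at 6, and 49.3% of all tested peaks were below 0. Its median was -0.06 at the locus and 0.00 over all tested peaks. The groups overlapped at each of the 15, while they did not at 3.88% of all tested peaks. For 14 of the 15 the 95% interval of the fold lay within 2-fold in either direction (85.6% of all tested peaks). For 7 it lay within 1.5-fold, and the share of all tested peaks within 1.5-fold was not computed.

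**Figure D3:**
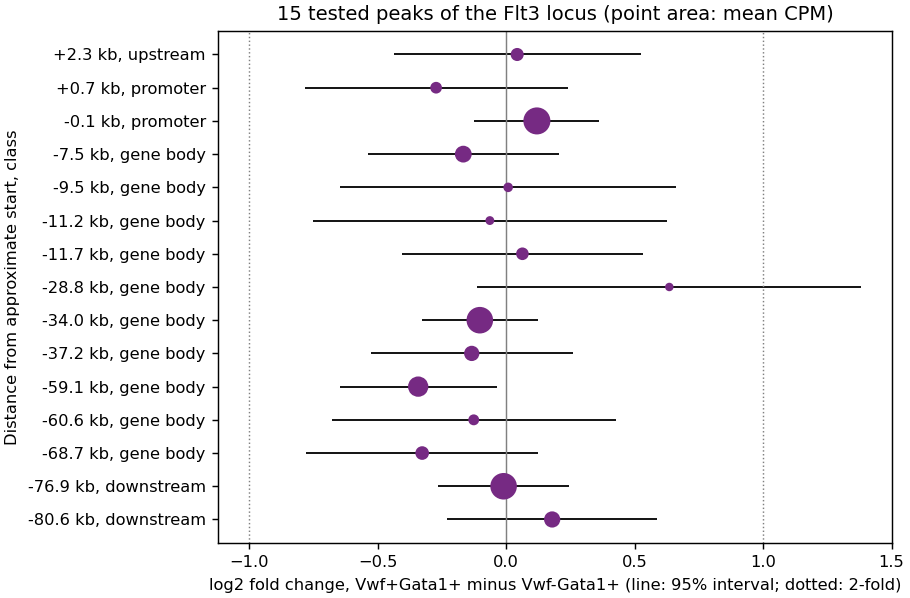
Log2 fold change of Vwf+Gata1+ minus Vwf-Gata1+ cells (x axis) at the 15 tested peaks, from the farthest downstream at the bottom to upstream at the top, with 95% intervals. Point area is the mean CPM and dotted lines mark 2-fold. The interval of 1 peak, 59.1 kb from the start, leaves out 0, and the interval of 1 other, 28.8 kb from the start, reaches past 2-fold.

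The peak with the lowest unadjusted p lay 59.1 kb from the start, in the gene body (chr5:148152502-148153304). It had 9.22, 9.38, 11.0 and 11.6 CPM in Vwf+Gata1+ libraries, against 13.6, 11.4, 12.3 and 14.7 CPM in Vwf-Gata1+ libraries. Replicate 4 of Vwf+Gata1+ cells was above replicate 2 of Vwf-Gata1+ cells, and otherwise the groups stood apart. The log2 fold change was -0.34 ± 0.15 (SE, unadjusted p = 0.029, edgeR adjusted p = 0.699), so it did not pass. Next in rank was a weak peak 28.8 kb from the start (chr5:148183012-148183334), with 8 to 16 counts in Vwf+Gata1+ libraries and 5 to 13 in Vwf-Gata1+ libraries. Its signal was 2.11, 1.69, 1.83 and 1.73 CPM in Vwf+Gata1+ libraries, against 0.915, 0.923, 0.975 and 1.90 CPM in Vwf-Gata1+ libraries. Replicate 4 of Vwf-Gata1+ cells was at the level of the other group, and the log2 fold change at 0.64 ± 0.37 (SE, unadjusted p = 0.0935, edgeR adjusted p = 0.798) did not pass.

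The other 9 tested peaks had log2 fold changes between -0.33 and 0.06, with 6 below 0, and the lowest unadjusted p among them was 0.150. The 9 peaks left out by the filter had 0 to 24 counts per library and means of 0.672 to 1.43 CPM. Of these, 7 lay in the gene body and 2 upstream. A fit without the filter, which takes in all 24, also called 0 at an adjusted p of 0.05. In it, 15 of 24 log2 fold changes were below 0. A peak among these, chr5:148169180-148169394 in the gene body, was chosen after its values were seen, as the only member of the 24 whose groups did not overlap (3.74% of all 134473 peaks did not). It had 8, 6, 3 and 8 counts in Vwf+Gata1+ libraries, against 11, 14, 9 and 14 counts in Vwf-Gata1+ libraries, or 1.004 ± 0.215 and 1.85 ± 0.320 CPM (SD over libraries, n = 4 each). Its log2 fold change in the fit without the filter was -0.82 ± 0.37 (SE, unadjusted p = 0.033, edgeR adjusted p = 0.748).

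Summed over the locus, signal did not differ between the groups beyond the spread of the libraries. It was 128.3, 125.7, 120.8 and 130.7 CPM in Vwf+Gata1+ libraries, against 131.3, 125.5, 134.0 and 139.1 CPM in Vwf-Gata1+ libraries. The groups overlapped. In a fit over 95 kb tiles the log2 fold change was -0.07 ± 0.05 (SE, edgeR adjusted p = 0.765 over 17047 tested tiles), and the 95% interval of the fold ran from 0.884 to 1.03. Of all tiles edgeR called 0 (0%), with 8.48% at an unadjusted p under 0.05, while DESeq2 called 5 tiles and limma-voom 0. The exact permutation p of the locus signal was 0.143 (2-sided). The flanks of 200 kb had 382.9 ± 12.8 CPM in Vwf+Gata1+ libraries, against 371.1 ± 6.03 CPM in Vwf-Gata1+ libraries (SD over libraries, n = 4 each; exact permutation p = 0.2).

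The classes of position were also compared by their summed signal, which was not among the planned tests. The 17 gene body peaks had 60.4 to 70.7 CPM in Vwf+Gata1+ cells and 71.2 to 80.1 CPM in Vwf-Gata1+ cells, with means of 66.4 ± 5.02 and 74.5 ± 3.97 CPM (SD over libraries, n = 4 each). The groups did not overlap, with a 2-sided exact permutation p of 0.0286, the smallest that 4 against 4 can give, and 0.114 after adjustment over the 4 classes. The share of tiles whose groups do not overlap was not computed, and for single tested peaks it was 3.88%. As a tile in the edgeR fit, a test added after seeing the data, they had a log2 fold change at -0.16 ± 0.07 (SE, unadjusted p = 0.0328, edgeR adjusted p = 0.563), and 8.48% of tiles had an unadjusted p under 0.05. The planned sum over all peaks that overlap the approximate gene, which takes in the peak over the start, had a log2 fold change at -0.10 ± 0.07 (SE, unadjusted p = 0.154, edgeR adjusted p = 0.723). The gene body difference therefore did not pass either correction. The 2 promoter peaks had 25.4 ± 1.79 CPM in Vwf+Gata1+ libraries, against 24.6 ± 3.83 CPM in Vwf-Gata1+ libraries (SD over libraries, n = 4 each; exact permutation p = 0.743). The 3 upstream peaks had 6.14 ± 1.01 and 5.82 ± 1.17 CPM in the same order (exact permutation p = 0.714). The 2 downstream peaks had 28.4 ± 4.40 and 27.5 ± 0.806 CPM (exact permutation p = 0.771). For each of these 3 classes the p adjusted over the 4 classes was 0.771.

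**Figure D4:**
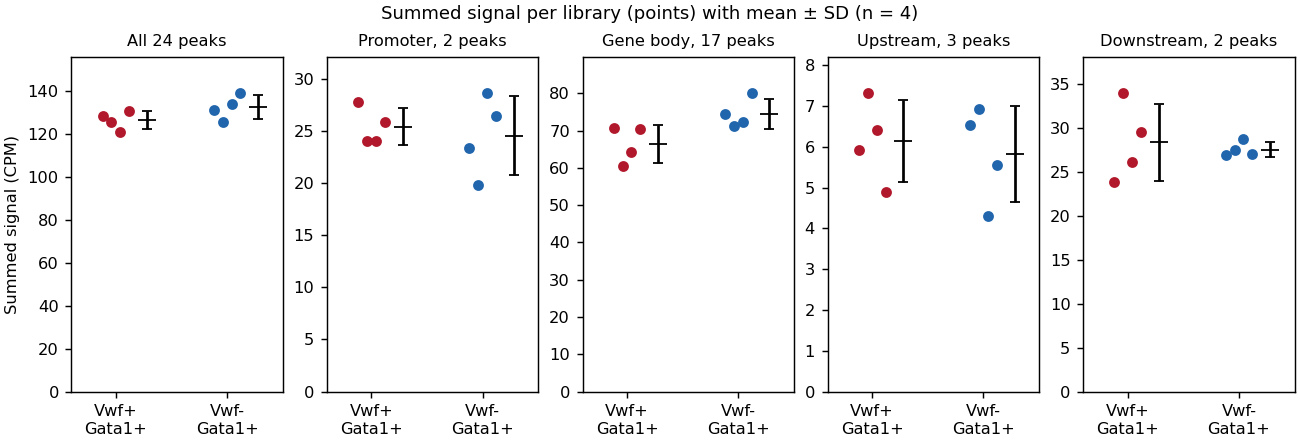
Summed signal in CPM (y axis, from 0) of all 24 peaks and of each position class, 1 point per library with mean and SD beside the points, for Vwf+Gata1+ (left) and Vwf-Gata1+ cells (right). The groups overlap except for the 17 gene body peaks, at 60.4 to 70.7 against 71.2 to 80.1 CPM, a difference that did not pass correction.

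The peaks just outside the range are given for its edges, with no test. On the low side, chr5:148126585-148127387 had 10.7 ± 0.849 CPM in Vwf+Gata1+ libraries, against 8.77 ± 0.947 CPM in Vwf-Gata1+ libraries. On the high side, chr5:148229561-148230708 had 31.7 ± 1.84 CPM in Vwf+Gata1+ libraries, against 34.9 ± 2.60 CPM in Vwf-Gata1+ libraries (SD over libraries, n = 4 each). The second was stronger than any of the 24 members by CPM. The last members inside were the strong downstream peak described at chr5:148131267-148131578 and a peak of 0.672 CPM at chr5:148222261-148222462.

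Among 44575 tested peaks elsewhere with at least 5 CPM, those whose log2 CPM followed the summed Flt3 signal most closely over the 8 libraries lay at chr16:75592855-75594391, chr7:4508162-4508807 and chr11:97372357-97373315 (Pearson r = 0.985, 0.973 and 0.971). The points share libraries and scaling, and 43 peaks had r above 0.9. How many of 44575 unrelated peaks would reach this with 8 libraries was not computed. This is a description of 8 libraries with a narrow range of locus signal.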

How the data were processed

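The libraries were made by Omni-ATAC from sorted bone marrow cells, per the labels' protocols. The authors deposited 1 table of raw counts for 134473 peaks and 8 libraries. The submitters' processing notes name mm9 as the build, MACS2, Picard, SAMtools, Bowtie2, FastQC and Trim Galore. Not given in the sources used here are versions, duplicate handling, the merging of peaks, the shift of read ends, and if reads or fragments were counted. Without the shift a cut site would be off by a few bases, in peaks that were 202 to 927 bp wide at this locus.

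Groups came from the labelled cell type and replicate numbers from the titles. The table was fitted whole with edgeR 4.0.16 in R 4.3.3 (filterByExpr with a minimum count of 10 and minimum total of 15, TMM, robust quasi-likelihood test, Benjamini-Hochberg adjustment over 97040 peaks). Each standard error is the absolute log2 fold change divided by the root of F. For locus sums, peaks were added up in 95 kb tiles. Log2 CPM used a prior count of 2. DESeq2 1.42.0 and limma 3.58.1 were alternatives, beside a replicate block, other scalings, no filter and each library left out. The fit was tested on simulated data. Chi-square values per degree of freedom between libraries of a group were 1.32 to 2.09. No threshold for leaving out a library was set, and all were kept.

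The peaks, lists and tests were chosen with earlier results of these data known. Values in every library are given for the peak over the start, the 3 other members with the highest CPM per kb and the 2 with the lowest p. Promoter sequences are RefSeq's, and peaks were assigned to no gene by annotation, since no mm9 annotation was used here.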

Additional observations from a re-analysis of the deposited data

Results flagged for a closer look

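In 54 groups of 4 values checked (each of the 24 peaks, the locus, the flanks and the promoter share, in both subpopulations), 3 held a library far from its group, and chance flags about 1 in 20. At chr5:148183012-148183334, replicate 4 of Vwf-Gata1+ cells had 1.90 CPM and the other three 0.915 to 0.975 CPM (gap over range 0.939). At chr5:148202407-148202631, a gene body peak, the lowest Vwf-Gata1+ library, replicate 1, had 1.05 CPM and the others 2.31 to 2.54 CPM (gap over range 0.846). At chr5:148204224-148204781, also in the gene body, the highest Vwf+Gata1+ library, replicate 2, had 7.88 CPM and the others 6.88 to 7.05 CPM (gap over range 0.832).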

How the results depend on the processing

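No alternative called a member of the Flt3 locus at an adjusted p of 0.05. The lowest adjusted p of a member was 0.309, with the replicate number as a block. An unadjusted p under 0.05 gave 1 of 15 members (6522 of all 97040 tested peaks). It gave 2 of 24 with no filter (8576 of 134473 peaks) and 0 of 24 with DESeq2 (4090 over all peaks). Leaving out replicate 1 of Vwf+Gata1+ cells gave 0 of 16 tested members (7969 of 100205 peaks). Leaving out their replicate 4 gave 2 of 16 (5913 of 100190 peaks). Without replicate 3 of Vwf-Gata1+ cells it was 3 of 16 (7518 of 104105 peaks). The count over all peaks, 14, was 511 with the replicate block, 27 with total count scaling, 8 with DESeq2 and 0 with limma-voom (6619 at an unadjusted p under 0.05), and between 3 and 76 with 1 library left out, the highest without replicate 1 of Vwf+Gata1+ cells. With 1 library left out, the count of members called stayed at 0. Of the 95 kb tiles, 0 were called, against 269 with the replicate block, 5 with DESeq2, and 30 or 1 when replicate 3 or replicate 1 of Vwf-Gata1+ cells was left out; the locus was in none of these (its adjusted p with the block was 0.467).

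The locus sum had a log2 fold change of -0.09 to -0.04 with 1 library left out, -0.07 with the replicate block, -0.11 without the member with most counts and -0.10 over the peaks that overlap the approximate gene. The flanks, a background value, had 0.042 (edgeR adjusted p = 0.823). The peak over the start had 0.01 without replicate 2 and 0.19 without replicate 3 of Vwf-Gata1+ cells. The gene body sum had -0.21 to -0.11 with 1 library left out and an adjusted p of 0.125 with the block. The downstream peak chr5:148134735-148135521, at -0.01, had values from -0.11 to 0.079 and changed sign without replicate 1 or 3 of either group. The difference in promoter share, 2.09 percentage points, ran from 1.11 to 2.88. By number of peaks and covered length, the place of the locus was above 99.4% and 94.96% of tiles, against 87.2% by signal. Causes of these shifts were not tested.

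The labels give no meaning to a shared replicate number. Deviations of same-numbered libraries correlated at 0.301, 0.163, 0.0740 and 0.0103, so not all exceeded 0.1. Each library was matched with the 4 of the other group, and for 5 of 8 the closest had the same number. How many would match so by chance was not computed, and the match is a hint and not the design. DESeq2 gave no adjusted p at 10 of 24 members. Depth limits the 9 filtered peaks most.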
